A study of Homo sapiens with 4 samples.

Results

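The mRNAs of 10 inflammatory cytokine genes, CSF1, CSF2, CSF3, IL1A, IL1B, IL1RN, IL6, IL11, LIF and IL24, were followed in MDA-MB-231 breast cancer cells and in their lung-metastatic subline MDA-MB-231-LM2 (LM2). The 10 genes were chosen on the ratios of these same columns, CSF3 and IL1B for their large difference, so their counts and ratios are a description and carry no test. All 10 were found among 34520 genes with a symbol, as 25 of the 65423 transcripts listed, and the transcript of highest mean count stands for its gene. By the labels each line was sampled 2 times, whereas the count table has a single column for each. It is not stated whether a column holds 1 of the libraries or their sum, so no difference has a replicate check. MDA-MB-231 is an established line of basal, triple-negative breast cancer grown in Leibovitz L-15 medium in air, and LM2, a subline obtained from it by selection for growth in the lung, was grown in DMEM with added CO2. Both media held serum, and the labels name no treatment. The cell line cannot be told apart from medium and gas. MDA-MB-231 is called the parental line, and paired values are given with it first and LM2 second.

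Cytokines are secreted proteins that act on cells carrying the matching receptor. The colony-stimulating factors direct the growth of white blood cells, CSF1 that of macrophages, CSF2 (GM-CSF) that of granulocytes and macrophages, and CSF3 (G-CSF) that of neutrophils. IL1A and IL1B are the ligands of the interleukin-1 receptor and IL1RN is the antagonist that occupies this receptor without a signal. IL6, IL11 and LIF signal through the shared receptor chain IL6ST (gp130), and IL24 belongs to the interleukin-10 family. Tumor cells that release such factors can act on neutrophils, macrophages and bone cells around them.

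The column totals were 130689252 and 128985870 counts. Each ratio sets LM2 against the parental line with both counts scaled by their totals, and the interval beside it (exact, Clopper-Pearson, 95%) covers counting error only. Levels are given in RPKM, the count scaled to transcript length in kilobases and to the column total, with exact Poisson intervals, also at 95% and for counting error only. All 8 markers listed for MDA-MB-231 averaged at least 50 counts and lay within 2-fold, at a median log2 ratio of -0.31. VIM and KRT18 stood at 0.79 and 0.25, and CD44, AXL, EGFR, CAV1, KRT8 and MSN between -0.57 and -0.28. The luminal receptors ESR1 (2 and 8 counts) and PGR (7 and 2 counts) were near 0 in both. Of 12 leukocyte markers, CD3E, MS4A1 and TYROBP were at 0 in both lines, and PTPRC, the common leukocyte antigen, had 8 and 7 counts. ITGAM, CD79A and FCER1G had at most 10 counts in a line. CD14 (199 and 114 counts), AIF1 (101 and 60) and LYZ (64 and 22) were lower in LM2, LYZ with a mean under 50 counts. The RPKM of the 12 summed to 32.2 and 36.2, most of it from CD68 and LAPTM5. LAPTM5 had 2260 and 5059 counts and was 2.27-fold higher (2.16 to 2.38), the 1 leukocyte marker over the minimum beyond 2-fold, while CD68 had 5583 and 4266 counts and was 1.29-fold lower. Their part in the cytokine values was not tested.

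Among the 10 cytokines, CSF3 and IL1B were far higher in LM2, IL1A was higher from low counts, IL11 and IL1RN were lower, and the remaining 5 lay within 2-fold. Over 2-fold higher were 3 of 10, and over 2-fold lower 2 of 10, IL1RN among the latter from 19 counts against a floor of 3. Among the 15437 genes that averaged at least 50 counts, 4.57% lay more than 2-fold above the parental level and 6.84% more than 2-fold below it, 11.4% either way. Nothing is read from the members' counts against these shares, because the same ratios were known when the genes were chosen. IL1RN is the 1 member with a mean under 50 counts. The median log2 ratio was 0.28 over the 10 members and -0.0046 over the 15437 genes.

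The order of the cytokine mRNAs by length-scaled level differed between the lines. In the parental line the order in RPKM was IL11, CSF1, LIF, CSF2, IL6, IL24, IL1B, CSF3, IL1A and IL1RN. The counting intervals of IL1B and CSF3, of CSF3 and IL1A, and of IL1A and IL1RN overlapped there. In LM2 the order was CSF3, IL1B, LIF, IL11, CSF1, CSF2, IL6, IL24, IL1A and IL1RN, and no neighbours in it had overlapping intervals. CSF3 and IL1B together gave 0.798% of the summed RPKM of the 10 genes in the parental line and 51.7% in LM2. The sum itself was 60.2 and 77.8, and without CSF3 and IL1B the sum of the other 8 was 59.7 and 37.6. IL11 gave the largest share in the parental line, 40.5%, and CSF3 in LM2, 34.5%.

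**Figure D1:**
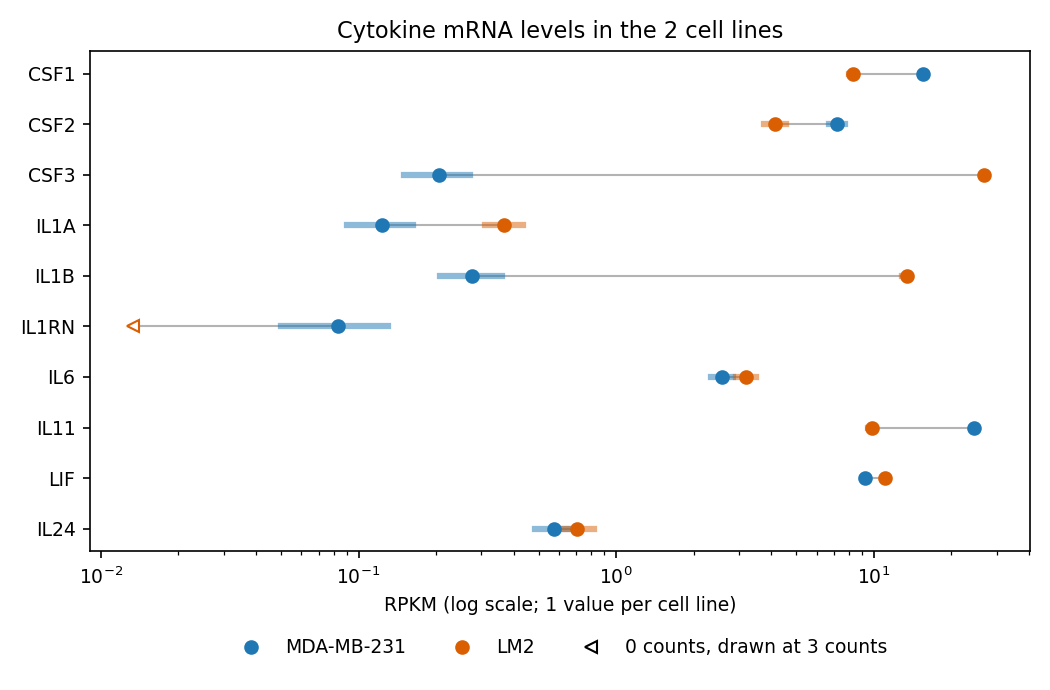
RPKM (x axis, log scale) of the 10 cytokine genes (y axis) in MDA-MB-231 (blue) and LM2 (orange), 1 value per cell line. Thick bars are Poisson intervals of counting error, grey lines join the lines' values, and the open triangle stands for 0 counts drawn at 3 counts; CSF3 and IL1B span the widest gaps.

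The colony-stimulating factors did not move together. CSF3 mRNA was counted 47 times in the parental line and 6085 times in LM2. Its RPKM was 0.204 (0.150 to 0.272) and 26.8 (26.1 to 27.5). It was 131-fold higher in LM2 (98.5 to 179), a log2 ratio of 7.04, which was number 11 from the top among the 15437 genes. CSF3 thus ranked at percentile 52.9 of all genes by RPKM in the parental line and at percentile 96.6 in LM2. CSF2, next to the cluster of interleukin genes on chromosome 5, had 738 and 418 counts, an RPKM of 7.19 and 4.13. It was 1.74-fold lower in LM2 (1.54 to 1.97). CSF1 had 8593 and 4514 counts, an RPKM of 15.5 and 8.27, and was 1.88-fold lower (1.81 to 1.95). The RPKM of CSF2 was therefore 35.2 times that of CSF3 in the parental line, whereas the RPKM of CSF3 was 6.50 times that of CSF2 in LM2.

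CSF3 is listed as 5 transcripts, and all 5 were low in the parental line and high in LM2. Their counts ran from 38 to 47 and from 4513 to 6085, and their log2 ratios from 6.91 to 7.04. The transcripts share most of their exons, so these values rest largely on the same reads. The transcript of highest count, NR_033662, is a non-coding form that retains the first intron. In GENCODE release 29 (GRCh38) it holds 176 bases that the coding form NM_172219 lacks, and the listed lengths differ by 176 as well. NR_033662 had 8 counts more than NM_172219 in the parental line and 1299 more in LM2. These extra counts were 17.0% (exact interval 7.65 to 30.8) of its counts in the parental line and 21.3% (20.3 to 22.4) in LM2. In LM2 this amounts to 7.38 extra counts per retained base, beside 3.02 counts per base of NM_172219 as a whole. Reads that cross the edges of the intron also fall under the extra counts, and their part in this density was not tested. Exon 3, the 108 bases that NM_000759 has and NM_172220 lacks, brought 273 counts more in LM2 and 1 more in the parental line.

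CSF1 is listed as 4 transcripts, at 3402 to 8593 counts and 1833 to 4514 counts. Each was lower in LM2, with log2 ratios from -0.93 to -0.86. NM_172212, with an RPKM of 11.9 and 6.56, was the lowest of the 4 by RPKM in both lines. The forms of CSF1 differ in how the protein is held at the membrane or released, and the similar ratios do not set one apart from another.

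**Figure D2:**
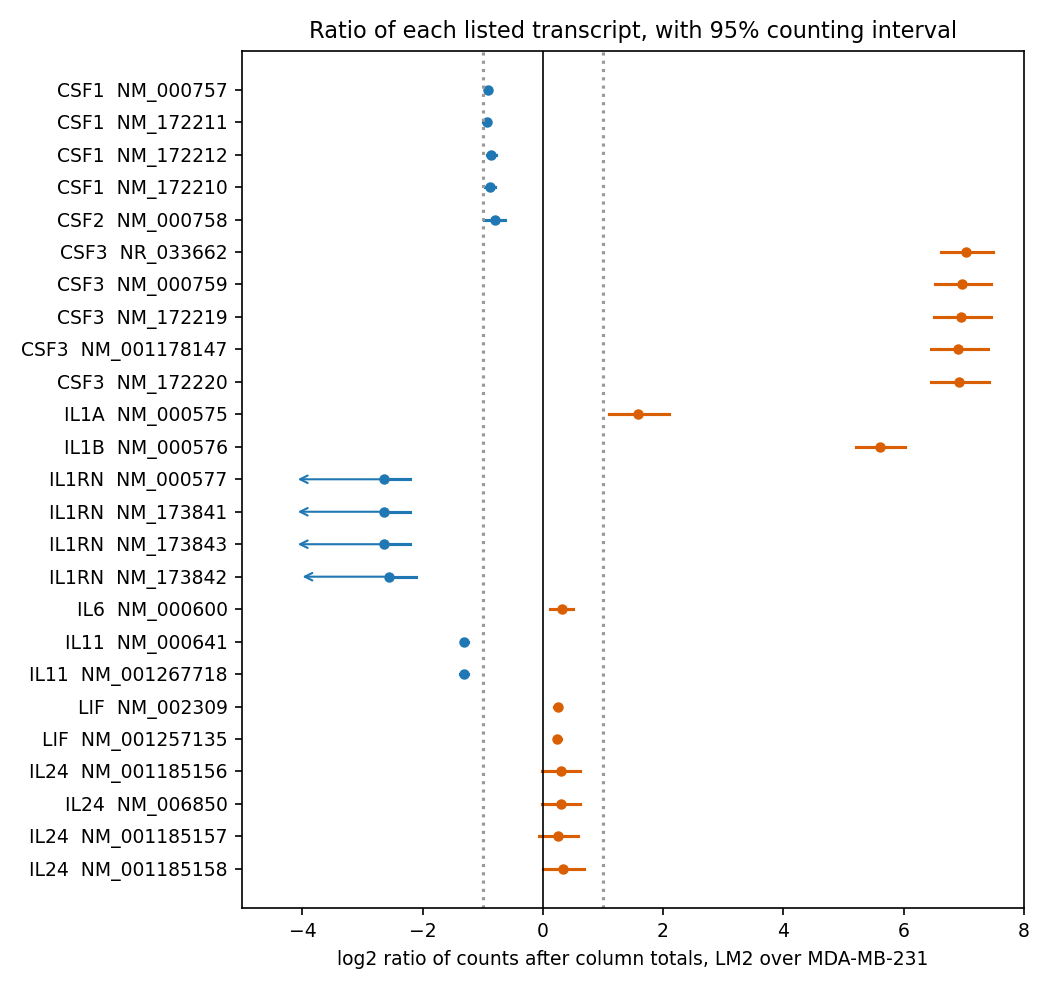
Log2 ratio of scaled counts, LM2 to MDA-MB-231 (x axis), for the 25 transcripts of the 10 cytokine genes (y axis). Lines are intervals of counting error at 95%, arrows mark the open lower side of IL1RN (0 counts in LM2, drawn at a floor of 3 counts), and dotted lines mark 2-fold; transcripts of a gene lie close together.

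Both interleukin-1 ligands were higher in LM2 and their antagonist was not detected there. IL1B had 54 and 2594 counts, an RPKM of 0.276 (0.207 to 0.360) and 13.4 (12.9 to 13.95). It was 48.7-fold higher in LM2 (37.2 to 65.0). At the floor of 3 counts it was number 35 from the top among the 15437 genes, a place that could likewise be further down. IL1A had 47 and 139 counts, an RPKM of 0.123 and 0.368, and was higher by a log2 ratio of 1.58 (1.10 to 2.09). Both values of IL1A are low, and the ratio was 1.07 on the log2(RPKM + 0.1) scale and 0.28 on the log2(RPKM + 1) scale. The RPKM of IL1B was 2.25 times that of IL1A in the parental line and 36.5 times in LM2. IL1RN had 19 counts in the parental line, an RPKM of 0.0830, and 0 in LM2, which allows an RPKM of up to 0.0163. At a floor of 3 counts for LM2 its ratio was 6.25-fold lower, and with the counting error of both columns at least 4.61-fold lower. On the log2(RPKM + 0.1) scale IL1RN stood at -0.87 and on the log2(RPKM + 1) scale at -0.12, both within 2-fold. The 4 listed transcripts of IL1RN, among them secreted and intracellular forms of the antagonist, had 18 or 19 counts each in the parental line, too few and too alike to say which form was present.

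The promoters of IL1A and IL1B are shown because both genes were over 2-fold higher in LM2. RefSeq windows of 250 bases before and 50 bases after a start (GRCh38.p14) were used for 7 of the 10 genes, all but CSF1, CSF3 and LIF, in 10 windows. They were searched on both strands for the NF-κB consensus, for the AP-1 motif TGANTCA and for the C/EBP motif TTGCNNAA, whose factors are known to act on cytokine genes. Of 35116 promoters of this length, 5.91% held the NF-κB consensus, 7.71% the AP-1 motif and 10.5% the C/EBP motif. In the sequences, written 5′ to 3′, capitals mark these matches. IL1A has 2 overlapping windows, of which the first is printed (chr2:112784444-112784743, minus strand). Its AP-1 matches begin at -12 and 38 from that start, and the same matches lie at -105 and -55 from the start of the second window. The IL1B window (chr2:112836730-112837029, minus strand) has 1 C/EBP match, at -215, and none of these matches overlaps another.
IL1A promoter: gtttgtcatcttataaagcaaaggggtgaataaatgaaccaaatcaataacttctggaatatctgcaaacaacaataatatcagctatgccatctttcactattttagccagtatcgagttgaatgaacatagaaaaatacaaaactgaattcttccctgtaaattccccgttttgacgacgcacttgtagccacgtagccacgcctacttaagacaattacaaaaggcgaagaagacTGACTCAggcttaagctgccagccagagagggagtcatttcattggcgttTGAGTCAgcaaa
IL1B promoter: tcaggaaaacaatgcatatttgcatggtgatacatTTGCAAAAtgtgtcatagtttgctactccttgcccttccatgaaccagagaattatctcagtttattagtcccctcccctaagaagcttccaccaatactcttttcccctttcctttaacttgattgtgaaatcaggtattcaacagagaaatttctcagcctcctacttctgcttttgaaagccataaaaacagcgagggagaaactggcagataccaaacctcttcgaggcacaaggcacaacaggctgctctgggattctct

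IL11, the bone- and platelet-active cytokine of the interleukin-6 family, was the most abundant of the 10 mRNAs in the parental line and was lower in LM2. It had 7583 and 3028 counts, an RPKM of 24.4 (23.9 to 25.0) and 9.87 (9.52 to 10.2). The ratio was 2.47-fold lower (2.37 to 2.58), number 650 from the bottom among the 15437 genes, and its second transcript had a log2 ratio of -1.32 beside -1.31. LIF, a cytokine that keeps embryonic stem cells undifferentiated in the mouse, had 4803 and 5637 counts, an RPKM of 9.26 and 11.0. It was 1.19-fold higher in LM2 (1.14 to 1.24) and held place 3 in the order in both lines. IL6, an inducer of the acute phase response, had 398 and 489 counts, an RPKM of 2.57 and 3.20, and was 1.24-fold higher (1.09 to 1.42). The RPKM of IL11 was 2.64 times that of LIF in the parental line and 0.897 times in LM2. Of these 3 genes, IL11 was the 1 beyond 2-fold.

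The IL6 and IL11 windows are shown beside each other because both genes belong to the family and their ratios differed in direction. The IL6 window (chr7:22726950-22727249, plus strand) has an NF-κB match at -73 and a C/EBP match at -155. The IL11 window (chr19:55370414-55370713, minus strand) has an AP-1 match at -96.
IL6 promoter: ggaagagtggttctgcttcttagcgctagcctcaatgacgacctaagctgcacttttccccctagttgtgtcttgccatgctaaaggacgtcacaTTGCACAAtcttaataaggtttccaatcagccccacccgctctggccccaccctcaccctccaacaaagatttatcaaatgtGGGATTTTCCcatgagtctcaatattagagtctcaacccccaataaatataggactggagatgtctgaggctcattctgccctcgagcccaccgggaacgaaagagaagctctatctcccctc
IL11 promoter: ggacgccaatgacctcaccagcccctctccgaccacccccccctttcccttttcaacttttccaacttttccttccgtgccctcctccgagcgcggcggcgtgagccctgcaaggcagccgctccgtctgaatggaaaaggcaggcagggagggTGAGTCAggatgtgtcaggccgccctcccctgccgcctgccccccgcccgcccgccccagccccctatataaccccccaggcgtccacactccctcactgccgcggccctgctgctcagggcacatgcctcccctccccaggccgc

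IL24, a cytokine of the interleukin-10 family, had 148 and 180 counts, an RPKM of 0.573 and 0.706. Its ratio of 1.23-fold higher has an interval that takes in no change (0.986 to 1.54), the 1 such case among the 10 genes. The 4 listed transcripts of IL24 had log2 ratios from 0.26 to 0.34. The CSF2 and IL24 windows held none of these 3 motifs, and of the IL1RN windows 1 held an AP-1 match.

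Cytokine mRNAs are known for AU-rich elements, repeats of ATTTA in the 3′ untranslated region that bind decay factors such as ZFP36. In the GENCODE release 29 transcripts paired with the members, 9 of 10 held ATTTA and 4 held the longer motif TTATTTATT. The 4 were CSF2 with 3 copies, IL1B with 2, IL11 with 6 and LIF with 2. Among 11634 genes with a paired transcript that averaged at least 50 counts, 69.1% held ATTTA, 8.16% held the longer motif and 1.88% held at least 2 copies of it. The 4 genes were not alike in ratio, since IL1B was higher, LIF was 1.19-fold higher, and CSF2 and IL11 were lower. Across all genes the median log2 ratio was -0.040 for 949 genes with the longer motif and 0.0071 for the rest. For each of the 4, the stretch of 30 bases with most ATTTA among those holding TTATTTATT is given 5′ to 3′. It is taken from the transcript sequence, with ATTTA in capitals.
CSF2 3′ end: ttttaaaatATTTATTTATTTATTTATTTA
IL1B 3′ end: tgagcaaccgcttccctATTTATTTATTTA
IL11 3′ end: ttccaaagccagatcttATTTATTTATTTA
LIF 3′ end: agatgtctccgggcccttATTTAttATTTA

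The receptor chains of these cytokines went both ways. Of 14 chains, 9 averaged at least 50 counts. Among these 9, 2 were more than 2-fold higher and 1 more than 2-fold lower, with a median log2 ratio of -0.28. Over all genes with that minimum, 4.57% were more than 2-fold higher and 6.84% more than 2-fold lower. CSF3R, the receptor of CSF3, had 0 and 6 counts. CSF2RA had 0 counts in both, CSF2RB had 3 and 0, and CSF1R had 187 and 128. CSF3 mRNA was thus abundant in LM2 while the mRNA of its receptor was close to the limit of detection. IL1R1, the signaling receptor of IL1A and IL1B, had 628 and 254 counts, an RPKM of 0.979 and 0.401, and was 2.44-fold lower (2.11 to 2.83). Its partner IL1RAP had 1514 and 1234 counts, a log2 ratio of -0.28, and the decoy receptor IL1R2 had 3 and 0. IL6ST, the shared chain, was the most abundant receptor mRNA in both lines, with an RPKM of 22.5 and 16.3. The IL6-binding chain IL6R had 124 and 287 counts and was 2.35-fold higher (1.89 to 2.92). IL20RB, a chain of the IL24 receptor, had 47 and 231 counts and was 4.98-fold higher (3.63 to 6.97).

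**Figure D3:**
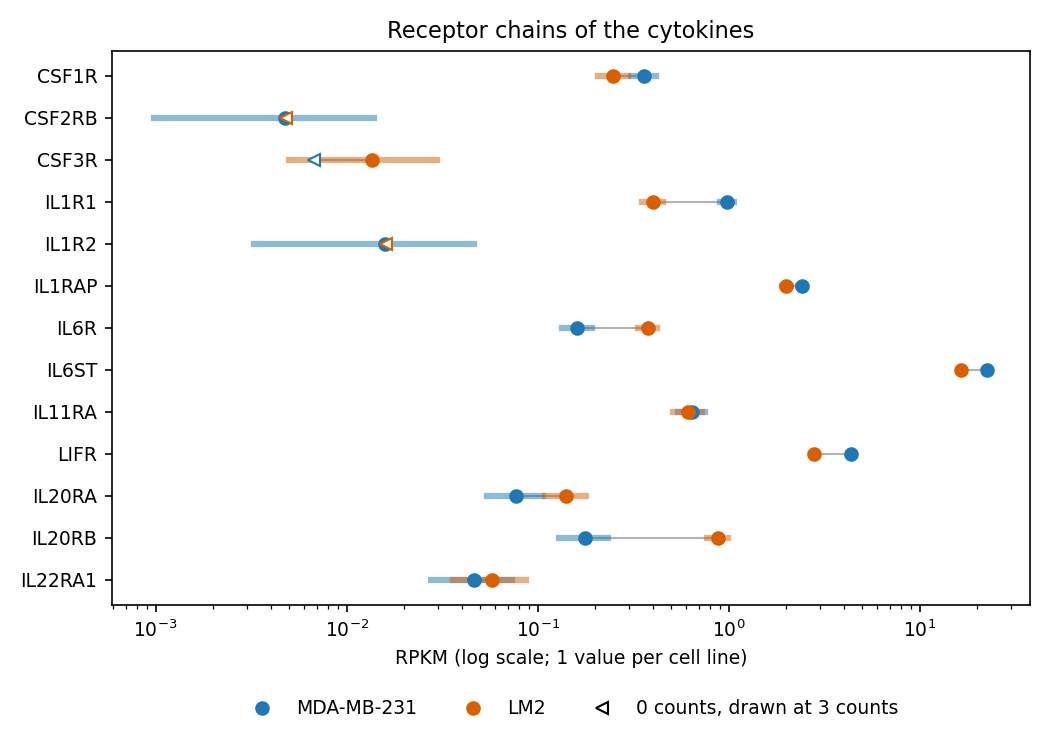
RPKM (x axis, log scale) of the 13 receptor chains with a count in either line (y axis), in MDA-MB-231 (blue) and LM2 (orange). Bars are Poisson intervals of counting error and open triangles stand for 0 counts drawn at 3 counts; IL6ST lies highest, IL1R1 is to the left in LM2 and IL20RB and IL6R are to the right.

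Of 15 genes of interleukin-1 processing and release, 12 averaged at least 50 counts. Among them 2 were more than 2-fold higher and 0 more than 2-fold lower, with a median log2 ratio of -0.046. The shares over all genes with this minimum were 4.57% higher and 6.84% lower. CASP1, the protease that cleaves the IL1B precursor, had 149 and 626 counts and was 4.26-fold higher (3.55 to 5.12). CASP4, a related inflammatory caspase, had 1787 and 3706 counts and was 2.10-fold higher (1.99 to 2.22). The sensor NLRP3 (log2 ratio 0.64), the adaptor PYCARD (-0.17) and the pore protein GSDMD (-0.38) lay within 2-fold. CAPN2, a calpain, had the highest RPKM of the list, 79.1 and 104. P2RX7, an ATP-gated channel, had 0 and 22 counts and lay under the minimum.

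Among 27 other cytokines of the same families, 20 had a mean under 50 counts, and 7 of the 27 had 0 counts in both lines. Of the other 7, 2 lay more than 2-fold higher and 1 more than 2-fold lower, beside 4.57% and 6.84% of all genes. IL18, an interleukin-1 relative that CASP1 also cleaves, had 1127 and 2350 counts, an RPKM of 7.52 and 15.9, and was 2.11-fold higher (1.97 to 2.27). CNTF, of the interleukin-6 family, had 233 and 461 counts and lay close to the 2-fold line, with an interval from 1.71 to 2.36. CTF1, of the same family, had 197 and 76 counts and was 2.56-fold lower (1.95 to 3.38).

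The listed genes of the relay from the interleukin-1 receptor all averaged at least 50 counts. All 17 lay within 2-fold, with a median log2 ratio of 0.015, beside 11.4% of all genes beyond 2-fold. IRAK1, the kinase of highest RPKM in the list, stood at 43.2 and 46.1, and the kinase IRAK2 and the inhibitory IRAK3 were 1.80-fold (1.67 to 1.96) and 1.83-fold (1.65 to 2.05) higher. The adaptor TAB3 was 1.71-fold lower (1.59 to 1.85) and the kinase MAPK14 1.56-fold lower (1.51 to 1.60). Of 14 JAK-STAT genes over the minimum, 0 were more than 2-fold higher and 2 more than 2-fold lower, at a median of -0.35. For all genes these shares were 4.57% and 6.84%. JAK3, a kinase of blood cells, had 88 and 14 counts and was 6.20-fold lower (3.51 to 11.8). PTPN6, a phosphatase of blood cells, had 175 and 44 counts and was 3.93-fold lower (2.81 to 5.60). PTPN11, a phosphatase that relays growth factor signals, had the highest RPKM of this list, 22.3 and 24.9. STAT3, the factor that IL6, IL11 and LIF activate, had a log2 ratio of -0.26, and its target SOCS3 one of -0.15.

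Of 15 factors of cytokine transcription and mRNA decay, 1 was more than 2-fold higher and 1 more than 2-fold lower, at a median of 0.19. Nothing is read from these counts about the list, as 11.4% of all genes over the minimum lay beyond 2-fold. CEBPB, a C/EBP factor first described as an activator of IL6, had 2047 and 6349 counts, an RPKM of 7.43 and 23.4, and was 3.14-fold higher (2.99 to 3.30). In the parental line the highest RPKM of the list was that of the decay factor KHSRP, 9.90. ZFP36L2, which binds AU-rich elements, had 802 and 260 counts and was 3.04-fold lower (2.64 to 3.52). Its relative ZFP36 had 214 and 250 counts, with an interval of the log2 ratio that takes in 0 (-0.026 to 0.51).

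**Figure D4:**
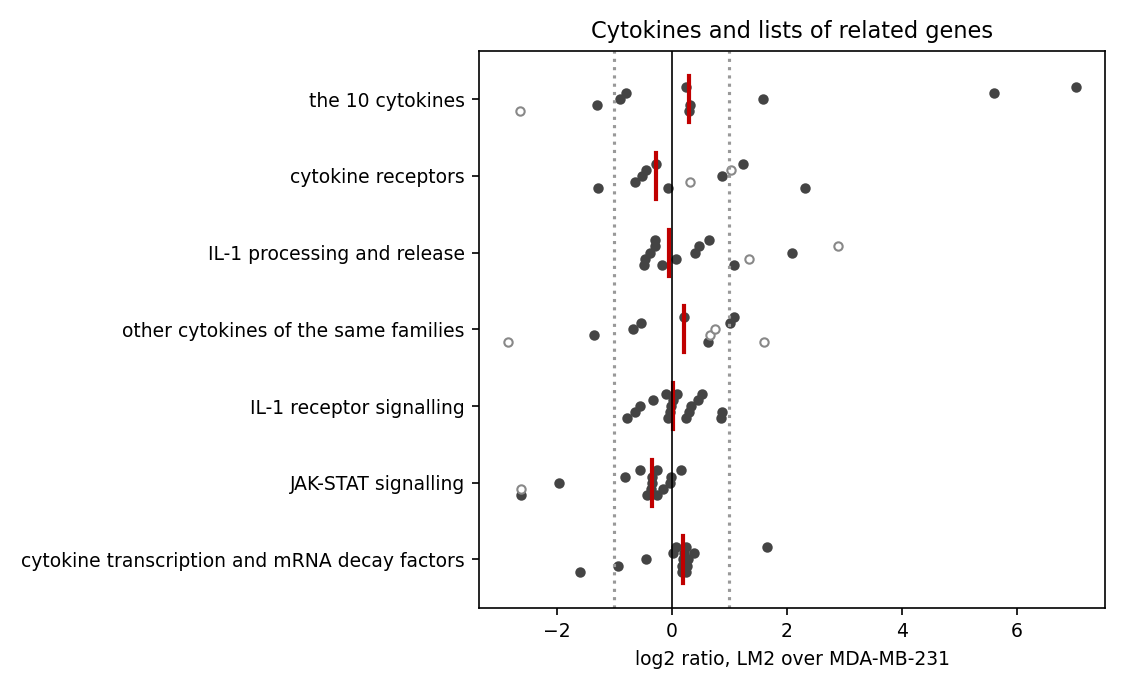
Log2 ratio of LM2 to MDA-MB-231 (x axis) for the 10 cytokines and of 6 lists of related genes (y axis). Each point is a gene, open points have a mean under 50 counts, red bars are medians of the filled points and dotted lines mark 2-fold; CSF3 and IL1B lie to the right of every listed gene.

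The nearest genes along the chromosomes had smaller ratios than CSF3 and IL1B. With 3 genes on each side by RefSeq order, the neighbours of CSF3 on chromosome 17 that averaged at least 50 counts were PSMD3, MED24 and THRA. Their log2 ratios ran from 0.16 to 0.63, beside 7.04 for CSF3. IL1A and IL1B lie side by side on chromosome 2. The other neighbours over the minimum were SLC20A1 at 0.54 and CKAP2L at 0.18, while IL36G, IL36A and IL37 of the same cluster had at most 3 counts in a line. The neighbours of IL1RN, PSD4, PAX8 and PAX8-AS1, ran from 0.45 to 0.83, whereas IL1RN was lower. Near IL11 on chromosome 19, TMEM238 (136 and 61 counts) had a log2 ratio of -1.14 beside -1.31 for IL11, and KMT5C and RPL28 stood at -0.066 and 0.052. Near CSF2, which stood at -0.80, FNIP1 was at 0.23, P4HA2-AS1 at -0.43, P4HA2 at -0.51 and PDLIM4 at -0.92. Near IL6 on chromosome 7, RAPGEF5 (45 and 110 counts) stood at 1.31, and the other 4 over the minimum between -0.71 and -0.23. Near IL24, IL10, IL19 and IL20 had at most 3 counts in a line.

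**Figure D5:**
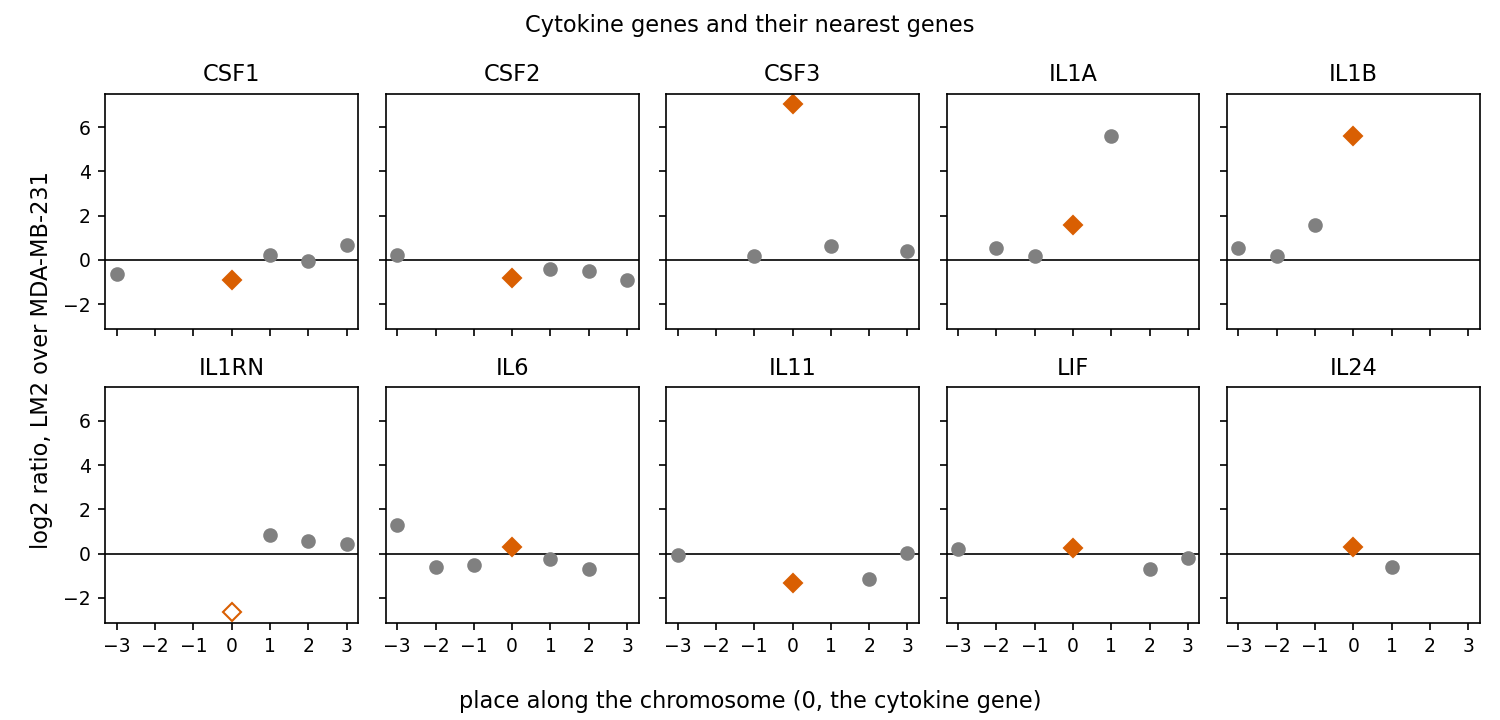
Log2 ratio of LM2 to MDA-MB-231 (y axis) for each cytokine gene (orange diamond at place 0) and of those of its 3 nearest genes on either side (grey, x axis in places along the chromosome) averaging at least 50 counts. The open diamond is IL1RN, set at the floor of 3 counts; the diamonds of CSF3 and IL1B lie at 7.04 and 5.61 and the neighbours other than IL1A and IL1B between -1.14 and 1.31.

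Whether the counting used strand is not stated, so reads of the other strand could enter 2 of the members. In GENCODE release 29, 20.7% of the exon bases of IL6 lie under exons of AC073072.1 and 2.22% under STEAP1B, both on the other strand. For LIF, 4.41% lie under AC004264.1 and 2.32% under LIF-AS1, which had 14 and 13 counts. STEAP1B had 124 and 81 counts, lower in LM2 while IL6 was slightly higher. No count is given here for AC073072.1, the larger overlap, and the part of other-strand reads in IL6 was not tested. The other 8 cytokine genes had no exon of another gene over theirs in that annotation.

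The genes listed nearest to CSF3 by ratio among the 15437 were ST6GALNAC3 (0 and 382 counts), ADGRL3 (2 and 233) and PCDH15 (4 and 454). The ratio of ST6GALNAC3 is a lower bound set by the floor of 3 counts, so its place cannot be ranked. ADGRL3 and PCDH15 lay within 0.19 of CSF3 on the log2 scale, but on so few parental counts that the interval of ADGRL3 ran from 5.01 to 9.94. Nearest to IL1B were LDB2 (3 and 142 counts), ALDH3A1 (26 and 1268) and SETBP1 (4 and 188), within 0.031. The likeness rests on 1 ratio of 2 columns. None of these 6 genes reached the RPKM of CSF3 or IL1B in LM2, the highest being ALDH3A1 at 5.10.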

How the data were processed

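RNA of the parental MDA-MB-231 line and of LM2 was sequenced, and the submitters' processing notes name bcl2fastq and TopHat2 (version 2.0.13) with hg19. The authors deposited read counts per transcript and RPKM values, the latter equal to count over listed length and column total to a relative difference of 4.98e-06. Which program, annotation and strand setting made the counts is not given in the sources. Overlapping transcripts can hold the same reads, and an RPKM of 1 at 1 kilobase stands for 131 counts in MDA-MB-231.

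With 1 column per cell line the edgeR test planned between libraries could not be run. Ratios of counts after the column totals were given with exact binomial (Clopper-Pearson) intervals, a count of 0 was set to 3 counts, and lists took genes averaging at least 50 counts. No ratio was computed where both counts were at most 3. Symbols came from RefSeq (GRCh38.p14) and GENCODE release 29 and were found for 62636 transcripts; no hg19 coordinates were converted. The members and lists were chosen with earlier results of these data known. Named were all members, list genes over 2-fold or of highest RPKM, neighbours along the chromosome and the genes of most similar ratio. List genes within 2-fold or under the minimum were otherwise named after their values were seen.

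Motif letters were settled after their share among promoters was seen. Ratios and intervals were first tested on simulated counts. Alternatives were scalings by edgeR 4.0.16 and DESeq2 1.42.0, NM_ totals, other transcripts, pseudocounts and count minimums. Calculations used Python 3.11.15, numpy 2.4.6, scipy 1.17.1, pandas 2.3.3 and R 4.3.3, and figures matplotlib 3.10.9.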

Additional observations from a re-analysis of the deposited data

How the results depend on the processing

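No paired analysis was possible because the table holds 1 column per cell line without replicate numbers, and for the same reason no sample could be left out. Of 80 alternative values of single cytokines, 69 stayed within the counting interval, 11 moved beyond it and 0 changed direction. Many of the 69 were fixed in advance. The TMM, upper-quartile and DESeq2 shifts were smaller than the reach of any member's interval. CSF2, IL1A, IL1B and IL6 have 1 listed transcript each, so the choice of transcript could not change them. For the scalings and pseudocounts direction was not put to a test. The scaling shifts were smaller than the ratio of any member, and an equal pseudocount keeps the sign. TMM, upper-quartile and DESeq2 scaling and totals of NM_ transcripts shifted every log2 ratio by 0.014, 0.0023, -0.0012 and -0.056. With NM_ totals, 1 other cytokine in place of 2 was over 2-fold higher, and 2 transcription and decay factors in place of 1 were over 2-fold lower. On the scales log2(RPKM + 0.1) and log2(RPKM + 1), and among members with a mean of at least 50 counts, 1 cytokine in place of 2 was over 2-fold lower, IL1RN being the one lost (-0.87 and -0.12 on these scales). On the log2(RPKM + 1) scale CSF3 stood at 4.53, IL1B at 3.50 and IL1A at 0.28, so that 2 in place of 3 were over 2-fold higher. With no minimum count, 4 genes of interleukin-1 processing were over 2-fold higher and 2 other cytokines over 2-fold lower, and over all genes 2219 were higher and 2644 lower, in place of 706 and 1056. With a mean of at least 200 counts, 1 receptor was over 2-fold higher, 0 other cytokines and 0 JAK-STAT genes were over 2-fold lower, and over all genes 385 were higher and 649 lower. Spread between cultures is unknown, and counts near 0, as of IL1RN and CSF3R, limit what can be said of them.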
